A study of Mus musculus with 6 samples.

Results

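Lipoprotein uptake and cholesterol efflux were followed in aortic valves through 9 genes, Apoe, Lpl, Lrp1, Vldlr, Cd36, Scarb1, Olr1, Abca1 and Abcg1, taken by symbol from the 46983 genes of the table. All 9 were found and all 9 passed the filter on low values. No member shares exonic bases with another listed gene. RNA-seq had been performed on whole aortic valves isolated from wild type C57BL/6J mice at postnatal day 2 (PND2, n = 3 libraries) and at 4 months of age (n = 3 libraries), each library holding the valves of 5 to 6 pooled animals. No group carried a transgene, a deletion or a treatment, and the comparison asks how expression in the newborn, still remodelling valve differs from that in the adult valve.

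Lipoproteins carry cholesterol and triglycerides through blood and tissue fluid. Apolipoprotein E, made by Apoe, is the ligand that lets receptors of the LDL receptor family take up remnant particles, and lipoprotein lipase, made by Lpl, frees fatty acids from their triglycerides at the cell surface. Lrp1 and Vldlr encode receptors of that family, Cd36, Scarb1 and Olr1 encode scavenger receptors that bind modified or high density lipoproteins, and Abca1 and Abcg1 encode transporters that pass cholesterol out of the cell to apolipoproteins and HDL. In valves this handling is of interest because lipoprotein particles collect in diseased leaflets.

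Expression was measured as RPKM, the reads on a gene scaled to the length of its exons and to the library total. Comparisons of levels between genes thus depend on which exons are counted in that length. The library totals used for scaling lay between 23810507 and 38994657, and what they count is not given. The best measured member, Apoe, held 36423 to 115283 reads a library and the weakest, Olr1, 43 to 130. Markers of several cell types differed with age. Summed RPKM of 10 adipocyte markers was 132.0 to 222 at PND2 and 548 to 1684 at 4 months, with Plin1 and Adipoq, which define fat cells, near 0 at PND2. The 10 cardiomyocyte markers summed to 18216 to 20849 and 7332 to 11594, the 10 macrophage markers to 380.5 to 426 and 1138 to 1260.3, and the 10 endothelial markers to 545 to 766 and 318 to 344. The 10 smooth muscle markers summed to 7536 to 8707 and 17028 to 28156, and the 10 valve interstitial markers to 6088 to 6565 and 7719 to 9741. The 9 erythroid markers found summed to 1865 to 2599 and 750 to 2158, with overlap. The defining genes Dcn, Myh11, Pecam1, Csf1r and Tnnt2 were all measured. Without Dcn, looked at after the values were seen, the valve interstitial sum was 5072 to 5541 RPKM at PND2 and 4223 to 5242 RPKM at 4 months, with overlap. The second 4 month library stood apart, with the highest adipocyte sum of all 6 libraries and, within its age, the highest cardiomyocyte and erythroid sums. In whole valves a change in the number of cells of a type and a change in RNA per cell cannot be told apart.

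Differences are given as log2 fold changes of RPKM + 0.1, 4 months over PND2, from limma with Benjamini-Hochberg adjustment over the 25903 genes that passed the filter, and a gene is said to have risen or fallen where its adjusted p was under 0.05. Over all genes tested the median log2 difference was -0.14, and -0.02 after median scaling of the libraries. Of the 9 members, 4 rose (Apoe, Lpl, Lrp1 and Vldlr), 1 fell (Scarb1) and 4 did not pass the test. For comparison 35.8% of all genes tested passed, 14.7% upward and 21.1% downward. The balance of directions turned with median scaling, from 3810 genes higher and 5463 lower to 4601 higher and 4129 lower, while the members called stayed at 4 higher and 1 lower. All 5 members that passed changed more than 2-fold, as did 17.2% of all genes, 8.72% upward and 8.47% downward. In each of the 5 the adult and newborn ranges were separate, as was the case in 50.0% of all genes tested. By the same test 9 of 10 adipocyte, 8 of 10 macrophage and 8 of 10 smooth muscle markers rose, 8 of 10 endothelial and 4 of 10 cardiomyocyte markers fell, and of the valve interstitial markers 2 rose and 4 fell. None of the 6 erythroid markers tested passed.

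**Figure D1:**
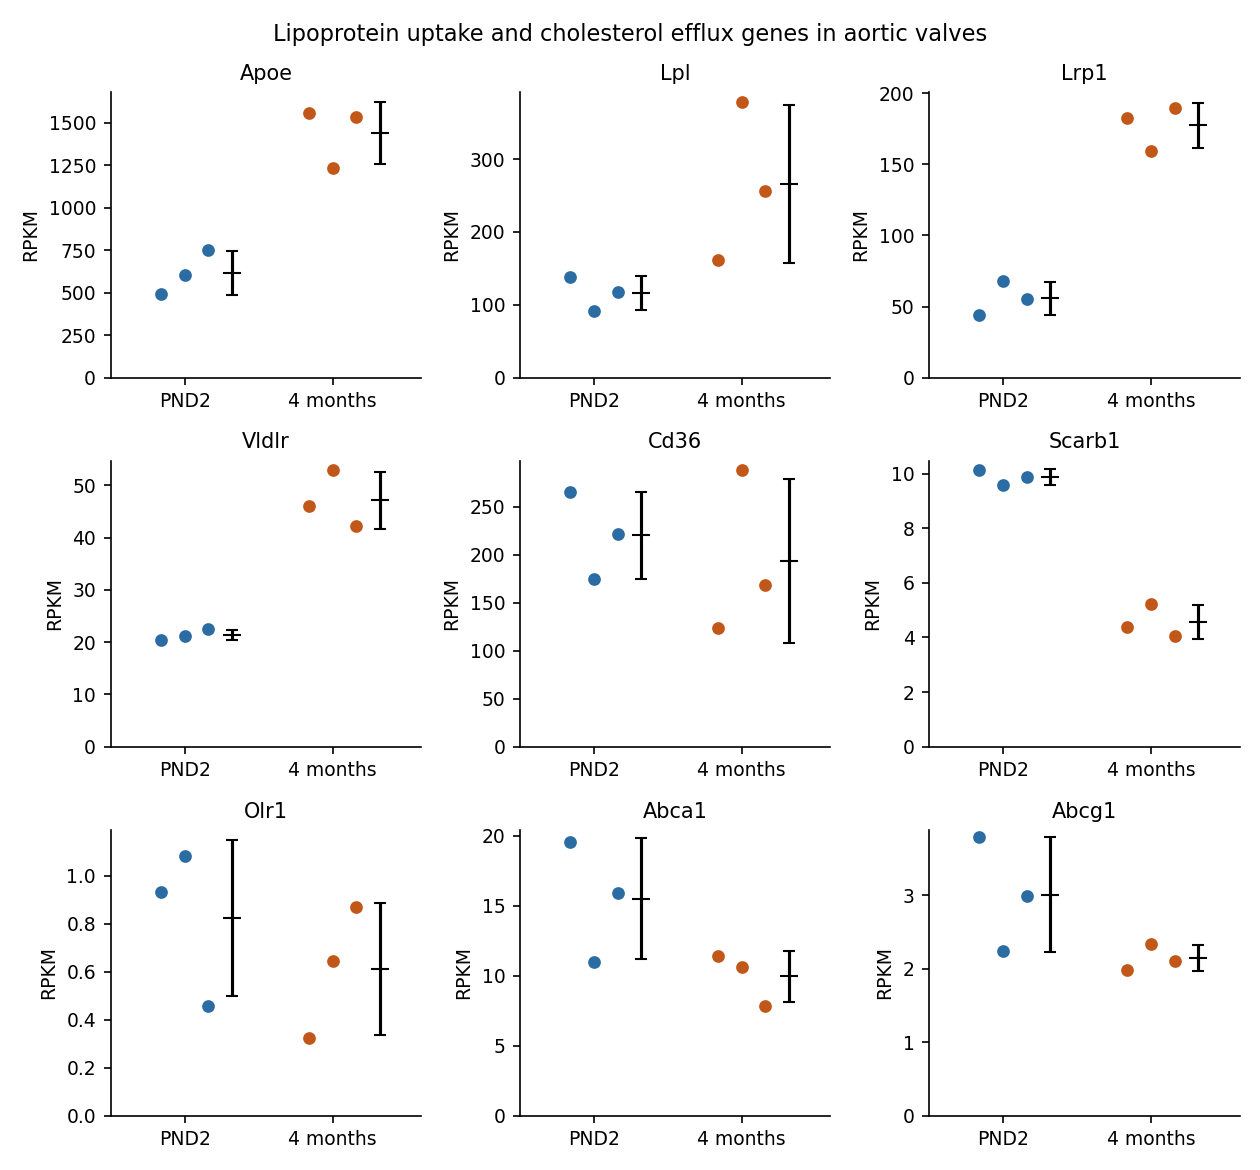
RPKM of the 9 genes in each library (vertical axes, linear from 0), with 3 PND2 libraries in blue and 3 libraries of 4 months in orange, and the mean ± SD in black. The 4 month values of Apoe, Lpl, Lrp1 and Vldlr lie above all PND2 values, those of Scarb1 lie below, and those of Cd36, Olr1, Abca1 and Abcg1 overlap with PND2.

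The stretch just upstream of a transcription start is where RNA polymerase is loaded. Of these sequences 4 are shown, because they belong to the 3 genes that rose under every alternative tried and to the cholesterol exporter Abca1. RefSeq windows (GRCm38.p6, the same coordinates as the mm10 build of the files) were found for 6 of the 9 members, in 9 windows. Apoe has 3 windows and Vldlr 2, at different starts, and 1 of each is shown. The Vldlr window shown lies inside the gene span given below, and the other (chr19:27216234-27216483) lies just before that span. The 250 bases upstream of the start are printed in the direction of the gene, Apoe from chr7:19699189-19699438 on the minus strand, Lrp1 from chr10:127621149-127621398 on the minus strand, Vldlr from chr19:27216770-27217019 on the plus strand and Abca1 from chr4:53159896-53160145 on the minus strand. Capitals mark matches on either strand to 6 motifs. These were the GC box with the letters GGGCGG, the CCAAT box named by its letters, the TATA box with the letters TATAAA, the E-box with the letters CACGTG, a sterol response element with the letters TCACNCCAC, and the core of the LXR direct repeat. The last is bound by the oxysterol receptors LXR, and its letters were taken with the Abca1 element known.
Apoe: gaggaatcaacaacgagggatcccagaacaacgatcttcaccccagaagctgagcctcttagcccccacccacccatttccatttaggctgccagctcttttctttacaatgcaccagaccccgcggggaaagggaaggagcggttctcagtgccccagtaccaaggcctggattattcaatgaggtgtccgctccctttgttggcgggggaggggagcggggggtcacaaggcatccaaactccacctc
Lrp1: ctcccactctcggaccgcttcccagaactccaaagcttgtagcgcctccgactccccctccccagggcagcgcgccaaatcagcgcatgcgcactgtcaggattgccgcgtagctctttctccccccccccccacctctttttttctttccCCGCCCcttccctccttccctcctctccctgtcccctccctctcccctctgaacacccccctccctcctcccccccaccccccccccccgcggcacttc
Vldlr: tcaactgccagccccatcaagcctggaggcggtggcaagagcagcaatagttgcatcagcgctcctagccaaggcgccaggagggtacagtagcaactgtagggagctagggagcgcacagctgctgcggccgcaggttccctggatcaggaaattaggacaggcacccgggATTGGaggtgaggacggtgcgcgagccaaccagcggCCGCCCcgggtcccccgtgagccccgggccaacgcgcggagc
Abca1: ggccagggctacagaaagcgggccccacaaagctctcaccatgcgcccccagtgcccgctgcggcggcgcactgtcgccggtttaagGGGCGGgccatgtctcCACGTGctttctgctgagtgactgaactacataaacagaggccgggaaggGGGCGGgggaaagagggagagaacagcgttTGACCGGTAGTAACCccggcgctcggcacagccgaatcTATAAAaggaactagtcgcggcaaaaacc
The Abca1 stretch held the direct repeat on its minus strand with its first base at position -67 from the start, a match present in 0.207% of all 32851 mouse windows of 300 bases. It also held an E-box, found in 7.15% of windows, GC boxes, found in 35.7%, and a TATA box, found in 13.6%. The Lrp1 stretch and the Vldlr stretch shown each held a GC box, and that of Vldlr also a CCAAT box, found in 37.4% of windows. The Apoe stretch shown held none of the 6. Of the windows not shown, the second of Apoe held TATA box matches, and the first of Vldlr held no match. No member window held the sterol response element, found in 1.24% of windows.

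Apoe (chr7:19696109-19699166, minus strand, mm10) was the most abundant member at both ages. It was measured at 496, 603 and 752 RPKM in the PND2 libraries and at 1559, 1233 and 1538 RPKM in those of 4 months. The lowest adult library was thus well above the highest newborn one. Mean expression rose 2.34-fold, from 617 ± 129 to 1443 ± 182 RPKM (SD, n = 3), a log2 fold change of 1.24 (SE 0.19, limma adjusted p = 0.0026). Of its 23 tested exons, 22 were higher at 4 months, with a median exon log2 difference of 1.24. The remaining exon held at most 18 reads in a library. Listed exons of this and the other members can share bases and reads, so such counts are not of separate exons. Where no overlap was allowed, 4 exons before the last were kept for Apoe, 88 for Lrp1 and 18 for Vldlr. The rise of Apoe was 1.35 on the log2 scale without the second 4 month library. Macrophages are a known source of apolipoprotein E, and the macrophage marker sum was at most 426 RPKM at PND2 and at least 1138 RPKM at 4 months. Within this sum Lyz2 alone averaged 121 RPKM at PND2 and 595 RPKM at 4 months. The part of macrophages in the Apoe rise was not tested.

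Lpl (chr8:68880491-68907448, plus strand) was measured at 138, 91.7 and 118 RPKM at PND2 and at 161, 378 and 256 RPKM at 4 months. The adult libraries were all higher, but spread over a wider range, with the second library at the top. Mean expression rose 2.28-fold, between 116 ± 23.5 and 265 ± 108 RPKM (SD, n = 3), which is 1.13 on the log2 scale (SE 0.30, limma adjusted p = 0.025). All 15 tested exons were higher, by 0.88 to 1.21 on the log2 scale. The call was the least secure of the 5. Without PND2 replicate 2, PND2 replicate 3 or 4 month replicate 3, the adjusted p was 0.0722, 0.0607 and 0.0727, and under the unequal-variance test per gene it was 0.165. Without the second 4 month library the log2 fold change was 0.83 (adjusted p = 0.0481). Fat cells and heart muscle are known to make much lipoprotein lipase. The library with the highest Lpl value also had the highest adipocyte marker sum, 1684 RPKM, of which 955 RPKM was Cfd. It also had the highest cardiomyocyte sum of its age, 11594 RPKM. The part of fat cells and heart muscle in the Lpl values was not tested.

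**Figure D2:**
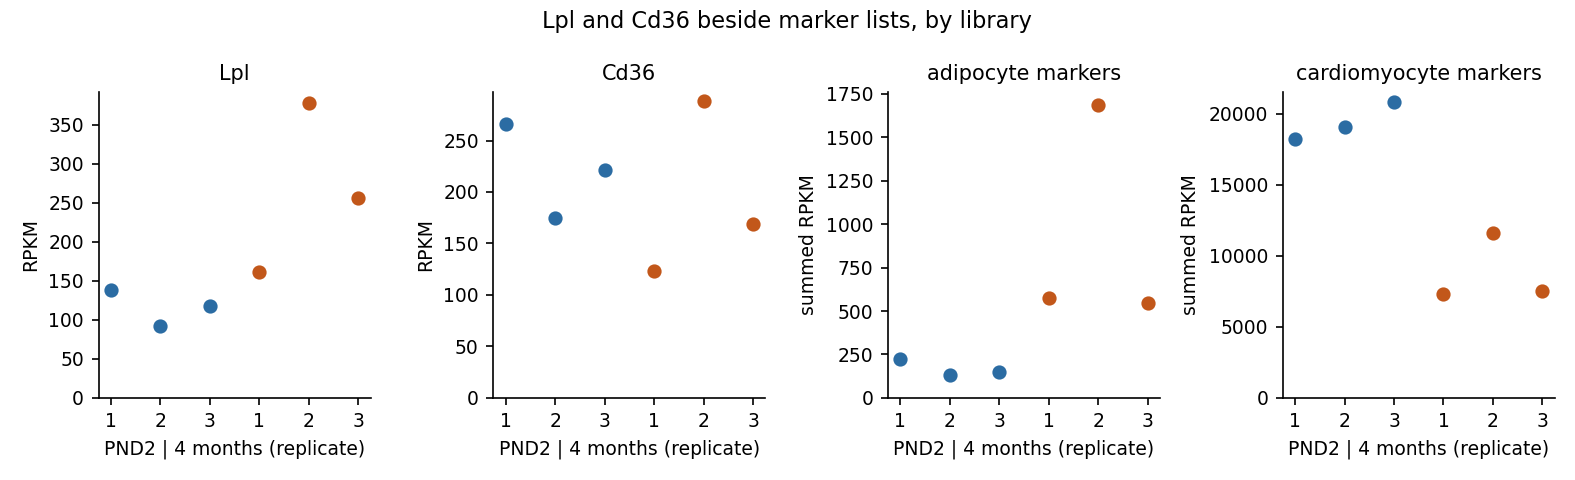
RPKM of Lpl and Cd36 and summed RPKM of the adipocyte and cardiomyocyte markers (vertical axes, linear from 0) in each library (horizontal axis, replicates 1 to 3 of PND2 in blue, then of 4 months in orange). The second 4 month library is the highest of its age in all 4 panels.

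Lrp1 (chr10:127538161-127621148, minus strand), a large endocytic receptor for remnant particles, proteases and matrix proteins, showed the largest change of the 9. It was measured at 44.3, 67.8 and 55.1 RPKM at PND2 and at 183, 159 and 189.8 RPKM at 4 months. No adult library came near the newborn values. Mean expression rose 3.18-fold, between 55.7 ± 11.7 and 177 ± 16.1 RPKM (SD, n = 3), which is 1.68 on the log2 scale (SE 0.16, limma adjusted p = 0.000401). All 106 tested exons were higher, by 1.15 to 2.09 on the log2 scale. The exons toward the 3' end were read more than those toward the 5' end at both ages, by 1.13 on the log2 scale at PND2 and by 1.5 at 4 months, a difference of 0.37 against a median of 0.03 over 5564 genes with enough exons.

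Vldlr (chr19:27216484-27254231, plus strand), the receptor for triglyceride-rich particles and for reelin, was measured at 20.4, 21.2 and 22.4 RPKM at PND2 and at 46.1, 53.0 and 42.3 RPKM at 4 months. The newborn libraries were nearly alike and the adult ones all lay above them. Mean expression rose 2.21-fold, between 21.4 ± 1.01 and 47.1 ± 5.46 RPKM (SD, n = 3), which is 1.13 on the log2 scale (SE 0.11, limma adjusted p = 0.000418). All 32 tested exons were higher, but by unequal amounts, from 0.42 to 1.59 on the log2 scale. The largest was the last exon in its longest form (chr19:27249105-27254231), of 5127 bases, nearly all of it 3' untranslated region.

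This last exon averaged 17.7 RPKM at PND2 and 53.6 RPKM at 4 months. Its use relative to the other exons of Vldlr was higher by 0.88 on the log2 scale (limma diffSplice, adjusted p = 0.0433 over 243348 exons, and 9.14e-06 with voom weights). It was the only one of 3 member exons with a called difference in usage that passed both ways of testing, which 0.275% of all exons tested did, while 1.31% passed the first. On simulated data the first test made more calls in unchanged genes than on the changed exons, and so counts for little alone. The call was lost when any of 5 of the 6 libraries was left out, with adjusted p up to 0.381, and with exons tested from 0.1 RPKM (adjusted p = 0.171), while the difference stayed between 0.78 and 1.05. The first 758 bases of the exon, an annotated shorter form, stood at 30.5 ± 3.30 RPKM at PND2 and at 60.2 ± 4.76 RPKM at 4 months (SD, n = 3), 1.97-fold higher. The remaining 4369 bases stood at 15.4 ± 1.10 and 52.4 ± 6.69 RPKM, 3.39-fold higher. The ratio of the remainder to the first part was 0.494, 0.532 and 0.496 at PND2 and 0.838, 0.917 and 0.848 at 4 months, without overlap (exact permutation test, two-sided p = 0.1, the smallest that 3 against 3 allows). These parts were looked at after the exon values were seen.

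A shift of reads toward last exons was also found in other genes in the mean of the libraries, though the libraries of the ages overlapped. The log2 ratio of the last exon to the exons before it was higher at 4 months by 0.168 in the median of 5564 genes, with quartiles of 0.0169 and 0.346, and by 0.882 in Vldlr. In 193 of these genes, 3.47%, the difference was as large or larger. By library the median ratio over these genes was -0.050, -0.27 and -0.26 at PND2. It was -0.058, -0.075 and 0.055 at 4 months, so the first PND2 library lay within the adult range. Without the last exon Vldlr rose 1.64-fold, between 44.9 ± 5.18 and 73.6 ± 8.67 RPKM, which is 0.71 on the log2 scale (SE 0.14, limma adjusted p = 0.00432).

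**Figure D3:**
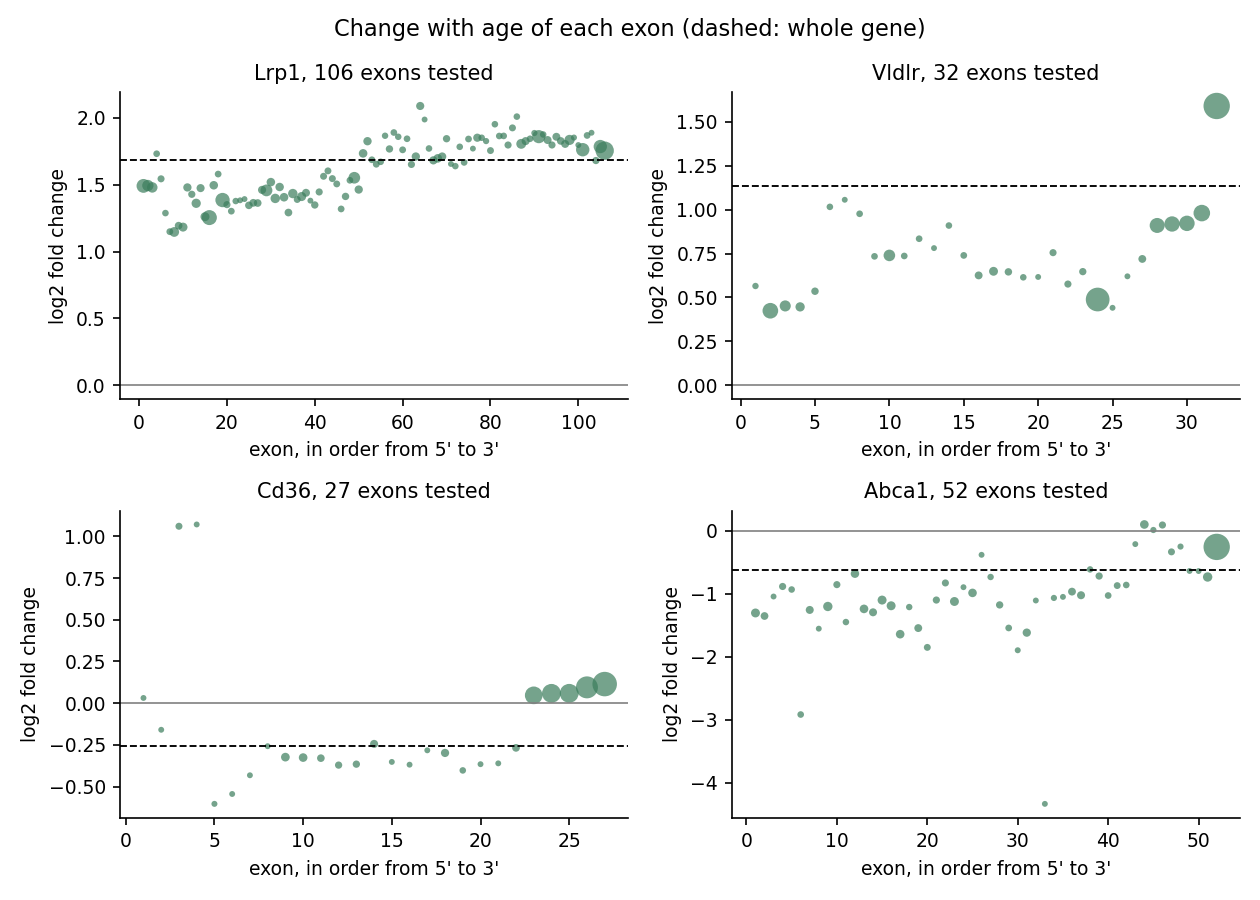
Log2 fold change of each tested exon of Lrp1, Vldlr, Cd36 and Abca1 (vertical axis) in order from the 5' to the 3' end (horizontal axis), with larger points for longer exons and the whole gene as a dashed line. Listed exons can share bases. The last Vldlr exon stands at 1.59, above all others of that gene, and a pair of alternative first exon forms of Cd36 stand above 1 while most of its exons lie below 0.

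Vldlr is known in forms with and without a segment rich in O-linked sugars, encoded by a single coding exon. In transcript Vldlr-207 this is exon 16 of 19, at chr19:27246593-27246676 on the plus strand, and its 84 bases (GENCODE M21, GRCm38) are shown because they tell the forms apart.
Vldlr exon 16: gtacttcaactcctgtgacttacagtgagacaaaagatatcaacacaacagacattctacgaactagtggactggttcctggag
The exon was measured at 27.2, 30.4 and 37.0 RPKM at PND2 and at 43.7, 46.5 and 37.8 RPKM at 4 months. As a share of the mean of its neighbouring exons it was 45.1% ± 6.38 at PND2 and 39.4% ± 1.38 at 4 months (SD, n = 3). These shares overlapped between the ages (exact permutation test, two-sided p = 0.2). As 3 against 3 cannot give a p below 0.1, this test could not have passed at any difference.

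Cd36 (chr5:17781690-17888801, minus strand), a fatty acid and oxidised LDL receptor of fat, muscle, capillaries and macrophages, was the second most abundant member at PND2. It was measured at 266, 174 and 221 RPKM at PND2 and at 124, 289 and 169 RPKM at 4 months. The ages overlapped throughout, with both the highest and the lowest value at 4 months. The log2 fold change was -0.25 (SE 0.31, 95% interval -0.97 to 0.46, limma adjusted p = 0.559), and 0.03 without the first 4 month library. Without the second, it was -0.59 (adjusted p = 0.0861). The second 4 month library, the highest for Cd36, was also the highest of its age for the adipocyte and cardiomyocyte markers, as for Lpl.

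Cd36 is transcribed from several noncoding first exons. The middle one (chr5:17849657-17849729, 73 bases), with which Cd36-202 and Cd36-204 begin, held 89, 119 and 84 reads at PND2 and 138, 258 and 172 reads at 4 months. Scaled to library totals these were 31.3, 53.4 and 39.3 RPKM and 50.6, 148 and 81.4 RPKM, with overlap (exact permutation test, two-sided p = 0.2). Relative to the exon at chr5:17835618-17835671, it stood at 10.3%, 29.4% and 14.1% at PND2 and at 41.7%, 46.7% and 50.1% at 4 months. That exon can be first or second, as Cd36-201 and Cd36-206 begin with an exon at this site. The ratio is thus not a share of transcripts. That exon stood at 255 ± 64.9 RPKM at PND2 and at 201 ± 104 RPKM at 4 months (SD, n = 3), with overlap. The ratios of the middle exon did not overlap (exact permutation test, two-sided p = 0.1, the smallest possible). Relative to the same exon, the farthest first exon stood at 13.7% ± 1.69 and 17.9% ± 7.86 (SD, n = 3) with overlap. In the test of exon usage over all exons the middle exon did not pass (usage difference 1.27 on the log2 scale, limma diffSplice adjusted p = 0.286). It was chosen after its values were seen.

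Scarb1 (chr5:125277087-125341094, minus strand), the HDL receptor that takes up cholesteryl ester, was the only member that fell. It was measured at 10.1, 9.57 and 9.88 RPKM at PND2 and at 4.39, 5.24 and 4.04 RPKM at 4 months. Both ages were tightly grouped and far apart. Mean expression was 9.86 ± 0.284 RPKM at PND2 and 4.56 ± 0.614 RPKM at 4 months (SD, n = 3), 2.16-fold lower, with a log2 fold change of -1.10 (SE 0.14, limma adjusted p = 0.00146). All 29 tested exons were lower, by 0.78 to 1.73 on the log2 scale, and the fall was -1.25 without the last exon. Endothelial cells are among those known to carry this receptor, and the endothelial marker sum, at least 545 RPKM at PND2, was at most 344 RPKM at 4 months. The part of this in the Scarb1 fall was not tested. The exon that separates the SR-BI and SR-BII forms stood at 61.5% ± 29.6 of the exon before it at PND2 and at 96.5% ± 15.7 at 4 months (SD, n = 3), with overlapping values (exact permutation test, two-sided p = 0.2).

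Olr1 (chr6:129485244-129507165, minus strand), the receptor LOX-1 for oxidised LDL, was the least abundant member. It was measured at 0.933, 1.08 and 0.459 RPKM at PND2 and at 0.322, 0.647 and 0.871 RPKM at 4 months, overlapping between the ages (log2 fold change -0.39, SE 0.44, limma adjusted p = 0.535). None of its 13 listed exons reached the level needed for the exon test. At 43 to 130 reads a library, only a large difference would have been detectable.

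Abca1 (chr4:53030787-53159895, minus strand), which loads cholesterol and phospholipid onto lipid-poor apolipoproteins, was measured at 19.6, 11 and 16 RPKM at PND2 and at 11.4, 10.6 and 7.87 RPKM at 4 months. The lowest PND2 library lay below the highest 4 month library. The log2 fold change of -0.61 (SE 0.24, 95% interval -1.17 to -0.06) did not pass the test (limma adjusted p = 0.0827). Of its 52 tested exons, 49 were lower, with a median exon log2 difference of -1.03. Because the last exon of Abca1 is far longer than its others, the gene was also measured without it, an addition made after the exon values were seen. It then stood at 15.3, 10.3 and 14.9 RPKM at PND2 and at 8.66, 8.08 and 4.81 RPKM at 4 months, no longer overlapping. On that measure Abca1 fell, by 0.92 on the log2 scale (SE 0.27, limma adjusted p = 0.0253), where 22.7% of 17731 genes fell and 15.3% rose. It also fell without PND2 replicate 2 (log2 fold change -0.84, adjusted p = 0.0244) and with voom weights (-0.62, adjusted p = 0.0474). The log2 ratio of its 3' exons to its 5' exons was higher at 4 months by 0.43, a difference in the direction seen in Lrp1. The same difference was -0.16 in Vldlr, -0.26 in Scarb1, -0.33 in Abcg1 and -0.0053 in Cd36.

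Abcg1 (chr17:31057698-31115777, plus strand), which passes cholesterol to HDL particles, was measured at 3.80, 2.24 and 2.99 RPKM at PND2 and at 1.98, 2.33 and 2.11 RPKM at 4 months. The adult values lay at the low end of the newborn range. The log2 fold change of -0.44 (SE 0.24, 95% interval -1.0 to 0.11) did not pass the test (limma adjusted p = 0.191), and 9 of 14 tested exons were lower.

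**Figure D4:**
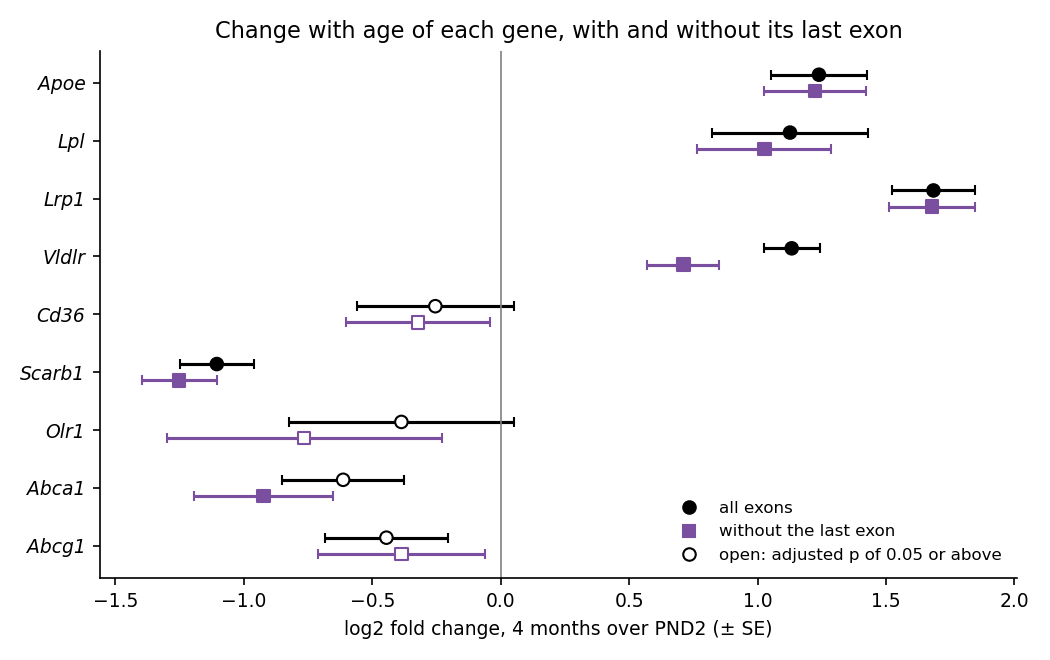
Log2 fold change of each gene (horizontal axis, 4 months over PND2, bars ± SE) from all exons (black circles) and without the last exon (purple squares), with open symbols where the adjusted p was 0.05 or above. Removing the last exon lowers Vldlr from 1.13 to 0.71 and moves Abca1 from -0.61 to -0.92, past the threshold.

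At PND2 the members ranked Apoe, Cd36, Lpl, Lrp1, Vldlr, Abca1, Scarb1, Abcg1 and Olr1 by RPKM, and no range of 3 libraries overlapped with that of the next gene. This order depends on the exons counted. Without the last exon Scarb1 stood above Abca1, with means of 35.0 and 13.5 RPKM at PND2 and 14.8 and 7.19 RPKM at 4 months. At 4 months Lpl stood above Cd36, with means of 265 and 194 RPKM, and Lrp1 followed at 177 RPKM. The ranges of Lpl and Cd36 overlapped, but within libraries Lpl was above Cd36 in 3 of 3 at 4 months and below it in 3 of 3 at PND2. The ranges of Cd36 and Lrp1 overlapped as well, and Cd36 was above Lrp1 in only 1 of the 3 adult libraries, the second. With all exons counted, the order of these neighbours by their means thus rests on that library. With the last exon left out, Cd36 stood above Lrp1 in every adult library. The values of Cd36 were then 221.9, 513.8 and 295.4 RPKM, and those of Lrp1 were 206.6, 180.8 and 211.3 RPKM.

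The other genes of the pathway were taken as 7 lists of 85 genes in all, of which 74 passed the filter. Among these 27 rose, 12 fell and 35 did not pass the test, beside the shares of all genes given above. Some genes stand in more than one list.

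In the LDL receptor family and its adaptors, 5 of 13 tested genes rose, 1 fell and the median log2 difference was 0.22. Sorl1, a sorting receptor that binds apolipoprotein E and lipoprotein lipase, rose most. It was measured at 2.28, 3.95 and 2.94 RPKM at PND2 and at 56.7, 49.5 and 45.4 RPKM at 4 months, a log2 fold change of 4.03 (SE 0.20, adjusted p = 3.49e-05). The adult values lay far above the newborn ones. Mylip, a ubiquitin ligase that marks receptors of this family for degradation, rose by 0.60 (adjusted p = 0.0125). Lrp8, the second reelin receptor, was low at both ages (0.694 and 0.911 RPKM, adjusted p = 0.344). Lrp4, a receptor of the neuromuscular junction, was the one that fell, from 6.07 to 3.79 RPKM.

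Among apolipoproteins and lipid transfer proteins, 5 of 8 tested genes rose and 2 fell, with a median log2 difference of 1.22. Clu, which encodes apolipoprotein J, was measured at 223, 237 and 233 RPKM at PND2 and at 532, 455 and 625 RPKM at 4 months, a log2 fold change of 1.21 (SE 0.13, adjusted p = 0.000676). Pltp, which moves phospholipid between particles, rose 5.87-fold, from 15.7 ± 2.36 to 92.0 ± 13.6 RPKM (SD, n = 3). Apod rose from 1.37 to 16.2 RPKM, Lcat, which esterifies the cholesterol of HDL, from 3.84 to 9.19 RPKM, and Apoc1 from 1.93 to 7.89 RPKM, with a value of 14.2 RPKM in the second 4 month library. The falls were in Apoa2, from 1.04 to 0.224 RPKM, and Apoa1, from 0.307 to 0.0959 RPKM, genes of the liver that were barely detected here.

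The partners of lipoprotein lipase went the other way from Lpl in part. Of 7 tested genes 3 fell and 1 rose, with a median log2 difference of -0.69. Angptl4, a secreted inhibitor of the lipase, was measured at 43.1, 51.9 and 60.7 RPKM at PND2 and at 19.5, 15.7 and 14.9 RPKM at 4 months, a fall of 1.63 on the log2 scale (SE 0.16, adjusted p = 0.000434). Gpihbp1, which carries the lipase to the capillary surface, was measured at 19.8, 10.2 and 12.1 RPKM and at 4.62, 7.45 and 7.26 RPKM, a fall of 1.08 (SE 0.29, adjusted p = 0.0241). It is made by capillary endothelium, and 8 of 10 endothelial markers fell as well. Their part in the Gpihbp1 fall was not tested. The proprotein convertases that cleave the lipase and its inhibitors were split, with Furin at 34.3 and 19.8 RPKM (fell) and Pcsk6 at 21 and 40.4 RPKM (rose).

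Of 11 tested scavenger receptors 5 rose and 1 fell, with a median log2 difference of 0.38. Colec12, a collagen-like scavenger receptor of stromal and vascular cells, rose 3.22-fold, from 76.9 ± 4.53 to 248 ± 14 RPKM (SD, n = 3, adjusted p = 4.65e-05). Cd163, the haemoglobin receptor of macrophages, rose from 2.45 ± 1.37 to 13 ± 1.88 RPKM, as did 8 of 10 macrophage markers. Msr1, the classical macrophage receptor for modified LDL, was at 3.04 and 2.89 RPKM (adjusted p = 0.956).

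Of the 18 genes for cholesterol handling inside the cell and its export, 2 rose, 3 fell and 13 did not pass the test, with a median log2 difference of 0.08. Cyp27a1 and Ch25h, which make oxysterols, rose from 11.3 to 36.9 RPKM (adjusted p = 0.00141) and from 1.98 to 5.42 RPKM (adjusted p = 0.00498). The 3 that fell were Soat1, which stores cholesterol as ester, at 13.6 and 7.93 RPKM, Gramd1b at 6.76 and 4.04 RPKM and Stard4 at 9.99 and 6.58 RPKM. The lysosomal genes Lipa, Npc1 and Npc2, which release cholesterol from the particles taken up, had log2 differences of -0.08, -0.15 and 0.08 with adjusted p of 0.521, 0.362 and 0.543.

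The lipid sensing nuclear receptors and their partners included 6 genes that rose and 6 that did not pass the test, with a median log2 difference of 0.68. Nr1h3, the oxysterol receptor LXR alpha, was measured at 2.28, 1.82 and 1.51 RPKM at PND2 and at 9.49, 9.69 and 10 RPKM at 4 months, a log2 fold change of 2.33 (SE 0.19, adjusted p = 0.000209). Nr1h2, LXR beta, was the more abundant of the pair at both ages and rose from 33.3 to 55.4 RPKM (adjusted p = 0.01). Rxrg, a partner receptor, rose from 0.608 to 7.40 RPKM. Among 12 targets of LXR outside the members, 8 rose and 2 fell, with a median log2 difference of 0.73. The largest rise was in Scd1, which makes monounsaturated fatty acids. It was measured at 7.06, 6.90 and 7.64 RPKM at PND2 and at 66.9, 715 and 123 RPKM at 4 months. Its highest value was in the library with the highest adipocyte sum. The 2 that fell were Lpcat3, at 35.3 and 19.6 RPKM, and Scd2, at 132 and 79.4 RPKM. Members are also among the known targets of LXR. Of these, Abca1 and Abcg1 had log2 differences of -0.61 and -0.44 and did not pass the test, whereas Apoe and Lpl rose by 1.24 and 1.13. Genes of these lists outside the rule stated for naming were named after their values were seen, where few genes made up a count.

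**Figure D5:**
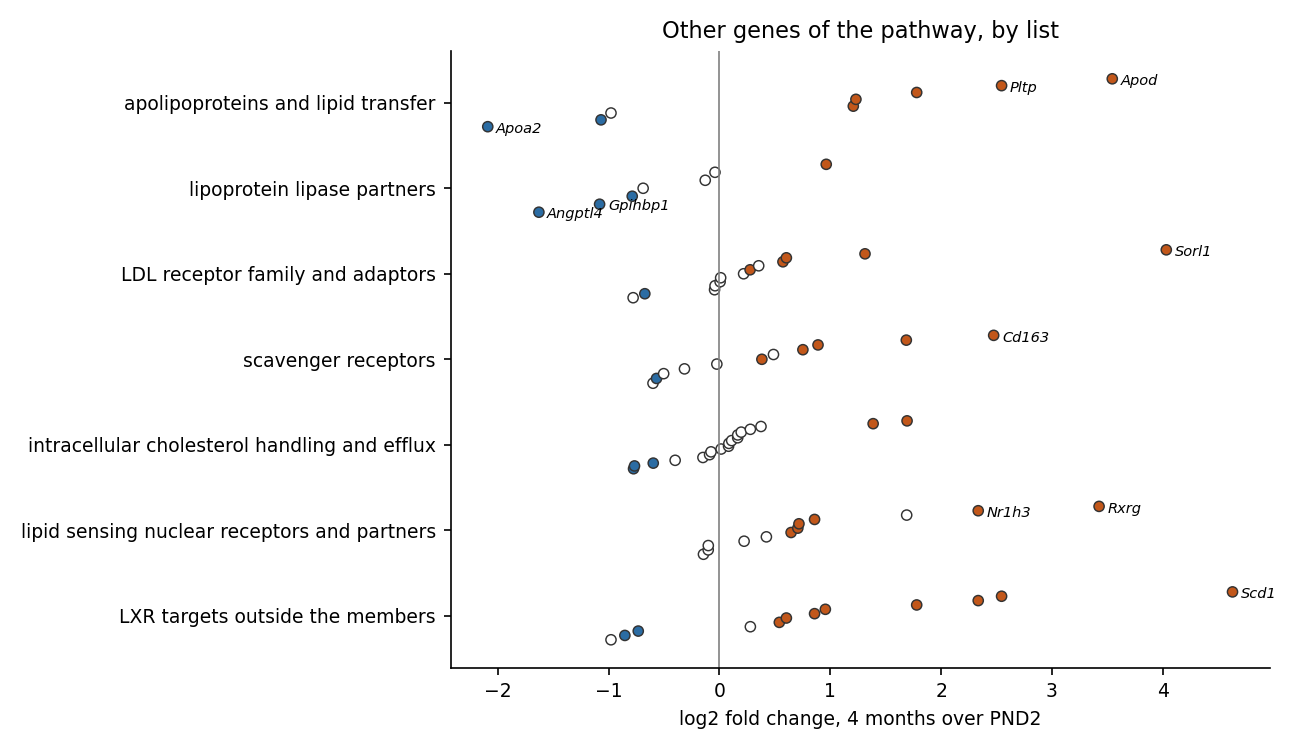
Log2 fold change, 4 months over PND2 (horizontal axis), of the tested genes in each of the 7 lists (vertical axis), filled where the adjusted p was under 0.05, orange for higher and blue for lower at 4 months. Sorl1 at 4.03 and Scd1 at 4.63 lie farthest to the right, and Angptl4 at -1.63 is the lowest of the lipase partners.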

How the data were processed

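Aortic valve RNA of 3 PND2 and 3 libraries of 4 months was sequenced from stranded TruSeq libraries. Per the study's methods and the submitters' processing notes, reads were aligned with TopHat2 2.1.0 to mm10 and counted per gene and exon with easyRNASeq on Ensembl annotation, without a stated use of strand. The authors deposited RPKM values for genes and for exons. All gene and exon values were whole reads, within 0.01 reads, once multiplied by length and library total. Reads on genes summed to 55069102 to 90673545 a library, more than the library totals. What the totals count and how reads with several matches were counted is not given in the sources used here.

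Genes at 0.1 RPKM or more in at least 3 libraries (25903) were tested on log2(RPKM + 0.1), which understates changes of low genes, with limma 3.58.1 in R 4.3.3 (eBayes with trend, Benjamini-Hochberg adjustment, threshold 0.05). An alternative was an unequal-variance test per gene, the kind of test the study used. It was run here without the study's filter and without its floor on low values. The study itself listed Scarb1 as lower at 4 months, among genes with an FDR under 0.05 and a fold change over 2. Exon usage was tested with diffSplice on exons at 1 RPKM or more in 3 libraries, and an exon was named where it also passed with voom weights. For values without the last exon, exons of at least 30 bases that did not overlap were summed. On simulated data both fits recovered most planted changes. The gene test made more false calls than its threshold allows, and the exon test without voom weights made more calls in unchanged genes than on planted exons. Named genes were the 9 members, 12 set genes of the pathway, and up to 6 genes per list with the largest change among those past the threshold, over 2-fold and at 1 RPKM or more. Some genes that this rule names are not reported here. The members and lists were chosen with earlier results of these data known. Sequences came from RefSeq and GENCODE M21. Replicates are pools of different animals per the labels.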

Additional observations from a re-analysis of the deposited data

How the results depend on the processing

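Apoe, Lrp1 and Vldlr kept their direction and their call under all 18 alternatives, with log2 fold changes of 1.09 to 1.43, 1.53 to 1.84 and 0.71 to 1.25. Lpl stayed higher at 1.13 but did not pass without the variance trend (adjusted p = 0.0527), under the unequal-variance test (0.165) and with low values floored (0.165). Leaving out 1 library gave 0.83 to 1.44 for Lpl, -0.59 to 0.0251 for Cd36 and -0.84 to -0.43 for Abca1, whose value was -0.62 with voom weights and -0.92 without the last exon, both past the threshold. Scarb1 at -1.10 missed it only under the unequal-variance test (adjusted p = 0.0518), among 18 alternatives. Members called lower thus numbered 0 there, 2 with voom weights and 2 without the last exon, and 1 to 2 with a library left out. Olr1 gave no value under the filter of 1 RPKM.

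The unequal-variance test called 1466 genes higher and 1942 lower, 11 and 4 in the pathway lists and 16 and 6 in the marker lists. Flooring low values gave 2440 and 3380 over all genes, and 6 lower in the pathway lists, where median scaling gave 7. With a library left out, genes called lower ran from 3403 to 5114, those in the pathway lists from 6 to 10, and member exons called from 2 to 5, against 1 with voom weights. With exons tested from 0.1 RPKM the last Vldlr exon had adjusted p = 0.171. The cause of these shifts was not tested.

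Samples with the same replicate number did not deviate together (r of 0.0439, -0.0608 and -0.16), and those with unlike numbers gave r of -0.18 to 0.23. Deviations from a mean of 3 samples depend on each other, so these values cannot settle whether the numbers pair the samples. With the replicate block, Lpl was at 1.13 with adjusted p = 0.0589 and the last Vldlr exon at 0.88 with adjusted p = 0.111. With 3 pools a group, p-values measure the spread between pools.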

Other observations

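For each member, the protein-coding genes with a mean of at least 5 RPKM whose values over the 6 libraries were most like it were found by the root mean square difference of centred log2 values, among 10613 candidates. Nearest to Apoe were Igfbp4, at 150.4 RPKM at PND2 and 366 RPKM at 4 months, Adamtsl5 and Hspa2. Nearest to Lrp1 were Pla2g4a, Plac9a and Fblim1, and nearest to Vldlr were Bcl2, Tgoln1 and Gid4. Lpl was followed less closely, with a difference of 0.166 for Rgcc against 0.0666 for Igfbp4 beside Apoe, and then by Gpt and Cox7a1, the latter a mitochondrial protein of heart and skeletal muscle. Cd36 was nearest to Apoo-ps, Pln, the calcium pump regulator of heart muscle, and Cycs. Scarb1 was nearest to Slc25a5, the mitochondrial carrier of adenine nucleotides, at 282 and 134 RPKM, with a difference of 0.0349. Next to Scarb1 came Ppp1r9a and Ireb2. Abca1 was nearest to Mospd1, Dock9 and Gm17728, Abcg1 to Ndufs4, Ube2g1 and Rab11a, and Olr1 to Per2, Thbs1 and Ociad2. The 6 points share their libraries and differ mainly by age, so that these are descriptions.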
